A study of Homo sapiens with 6 samples.

Results

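Kruppel-like factors (KLF) are transcription factors that bind GC-rich boxes and CACCC boxes in promoters through carboxy-terminal zinc fingers. The rest of the protein differs, so that some members activate transcription, some recruit the corepressor CtBP and some recruit the corepressor SIN3A. In lymphocytes KLF2 is known for holding cells in quiescence and for setting their traffic, and in multiple myeloma (MM) KLF2 has been described as part of a circuit with the histone demethylase KDM3A and the plasma cell factor IRF4. KLF6 and KLF4 are best known for the control of proliferation, and KLF4 is one of the factors used to reprogram cells to pluripotency. The members described here were KLF2, KLF3, KLF4, KLF6, KLF7, KLF9, KLF10, KLF11, KLF12 and KLF13. They were taken by gene symbol, but with earlier results of these data known. A further 7 measured Kruppel-like factors are described apart from these 10 members. All 10 members were measured, among 21921 genes with a row of their own in a table of 65529 rows. Each gene stood on the row with the highest mean, and KLF13 was the only member with 2 rows.

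The cells were INA-6, an established human MM cell line that was grown with interleukin-6 and that the labels describe as mature plasma cells. In the first group they received 1 μM of UNC1999, an inhibitor of EZH2, which is the enzyme of Polycomb repressive complex PRC2 that methylates histone H3. In the second group they received 1 μM of the inactive compound UNC2400, named as the control in the labels, while the text of the study names DMSO. Both groups were seeded at 100000 cells per mL, given fresh medium and compound at 72 h and collected at 120 h, and 3 biological replicates of each were run on Affymetrix arrays, 1 array each. A single line was used, and precision is limited by having 3 arrays a group. Values are the log2 expression values as deposited, and differences are UNC1999 minus UNC2400 on that scale. Adjusted p come from limma, with Benjamini-Hochberg adjustment over all 65529 rows and a threshold of 0.05.

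Arrays of UNC1999 and UNC2400 were set apart by the first principal component, with 67.8% of the variance. The second, with 13.25%, gave UNC1999 replicate 3 a score of -18.95, against 12.37 and 7.13 for the other UNC1999 arrays. UNC1999 replicate 3 also gave the lowest value of its group for 6 of the 10 members. Median log2 values lay between 4.83 and 4.86 on the 6 arrays. Of 9 plasma cell markers, all above the array median of 4.85 as means over the 6 arrays, 8 were lower with UNC1999, 1 was higher (CD38, limma adjusted p = 0.0244, kept only without UNC1999 replicate 2 or 3, up to 0.0861 otherwise) and the median difference was -1.05. The mean over these markers was 7.17 to 7.39 on the UNC1999 arrays and 8.21 to 8.31 on the UNC2400 arrays. The part of this shift in the results below was not tested. The arrays measured RNA of whole cultures, so that fewer cells expressing a gene and less of its RNA per cell cannot be told apart. Myeloid (7), endothelial (6) and stromal (5) markers had none past the threshold in either direction. Of 7 T cell markers, CD3E was higher (difference 0.30, limma adjusted p = 0.00805), CD3D, CD3G and CD8A did not pass, and the mean over the list was 5.07 to 5.08 on the UNC1999 arrays and 4.99 to 5.04 on the UNC2400 arrays.

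Promoters of the members differed widely in base composition. RefSeq windows of 300 bases around annotated starts (250 before and 50 after, build GRCh38.p14) were available here for 8 of the 10 members, in 15 windows, with a GC content between 32.7% and 80.7%, against a median of 58.7% over 35114 promoters. The box GGGCGG, which SP and Kruppel-like factors bind, was in 8 of the 15 windows (45.0% of all promoters hold it). CACCC was in 7 of 15 (59.9% of all promoters), CCAAT in 6 of 15 (34.6%) and TATAAA in 0 of 15 (11.5%). Matches to each motif or to its reverse complement were counted, overlaps included, and describe the letters only. KLF7 and KLF12 have 4 windows each and KLF11 has 2, so windows outnumber genes in these counts. Windows of the same gene do not overlap each other. The 250 bases before the start are shown 5′ to 3′ for KLF6, the member with the largest difference, and for KLF2 and KLF9, which hold the highest and lowest GC content, with matches to any of these 4 motifs on either strand in capitals. KLF6 lies on the minus strand (chr10:3785210-3785459) with 2 GGGCGG and 2 CCAAT matches, KLF2 on the plus strand (chr19:16324576-16324825) with 4 GGGCGG matches, 2 of them touching each other, and KLF9 on the minus strand (chr9:70414658-70414907) with 2 CCAAT matches.
KLF6: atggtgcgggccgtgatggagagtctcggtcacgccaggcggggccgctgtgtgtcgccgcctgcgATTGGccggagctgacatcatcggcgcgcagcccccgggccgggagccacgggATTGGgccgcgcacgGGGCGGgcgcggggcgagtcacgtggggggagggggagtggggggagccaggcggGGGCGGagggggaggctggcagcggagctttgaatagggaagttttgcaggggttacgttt
KLF2: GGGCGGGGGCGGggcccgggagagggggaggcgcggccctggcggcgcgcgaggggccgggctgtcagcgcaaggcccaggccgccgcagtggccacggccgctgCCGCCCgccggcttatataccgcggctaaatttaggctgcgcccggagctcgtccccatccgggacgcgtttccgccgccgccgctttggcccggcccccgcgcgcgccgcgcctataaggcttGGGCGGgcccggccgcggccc
KLF9: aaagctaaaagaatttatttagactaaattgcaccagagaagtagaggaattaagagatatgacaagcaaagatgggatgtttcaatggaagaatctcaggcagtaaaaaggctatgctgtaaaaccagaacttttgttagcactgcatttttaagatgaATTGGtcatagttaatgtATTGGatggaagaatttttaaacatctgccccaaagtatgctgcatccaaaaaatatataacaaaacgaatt

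With UNC1999, 4 of the 10 members were higher and 0 were lower. The median difference was 0.16, against a median over all 21921 genes of 0.01 (interquartile range -0.02 to 0.07). The higher group mean of all 10 members lay above the array median, whereas the 21921 genes include dim ones. With dim rows left out of the fit, 3603 of 33546 rows were called higher, against 3273 of all 65529. The members were not compared with genes of like signal alone. The 4 that rose were KLF6, KLF3, KLF7 and KLF12, beside 9.16% of all genes called higher and 7.32% called lower. All 3 UNC1999 arrays lay above all 3 UNC2400 arrays for 5 members and below them for none, whereas 24.1% of all genes lay above and 13.7% below. No member reached the study thresholds (fold of 1.5 or more with unadjusted p up to 0.02), which 2.38% of genes passed in either direction. The fitted fold of each member was below 1.5, and the count of members that rose was 2 to 4 when 1 array was left out and 3 after quantile or cyclic loess normalization, with 0 lower in each case. Of all 65529 rows, 1486 to 3657 were called higher when 1 array was left out. After quantile normalization 3568 were, and after cyclic loess normalization 3011.

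**Figure D1:**
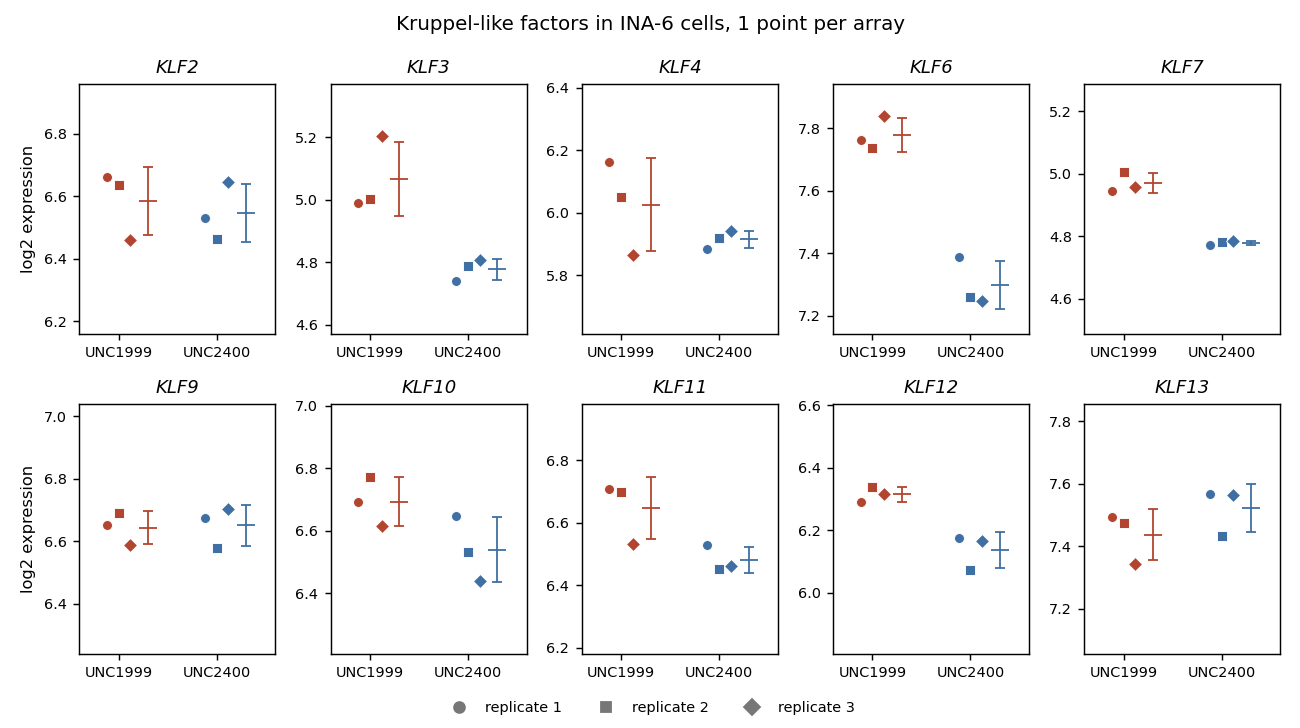
Log2 expression of the 10 Kruppel-like factors on each array (points, shape by replicate), with the mean and SD of each group (n = 3) as a bar beside the points, UNC1999 left of UNC2400. Every panel spans the same height in log2 units at its own level, and the points of the groups do not overlap for KLF3, KLF6, KLF7, KLF11 and KLF12.

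**Figure D2:**
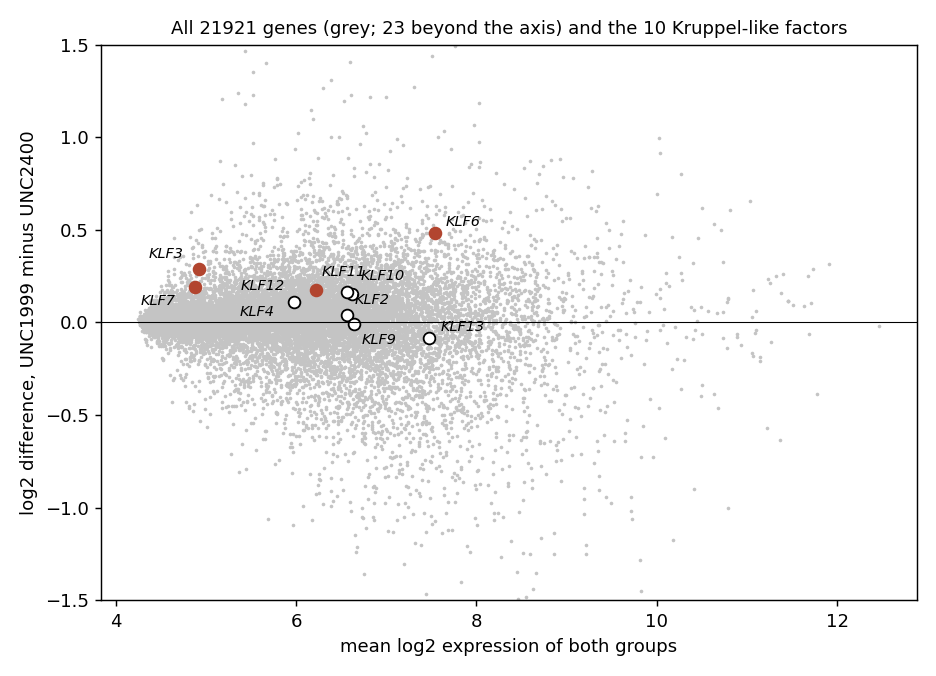
Difference of each gene (UNC1999 minus UNC2400, log2) against its mean log2 expression over both groups, with 21921 genes in grey, members with an adjusted p below 0.05 as filled circles and the other members as open circles. KLF6 lies at a difference of 0.48, and 23 genes lie beyond the axis limit of 1.5.

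Of the activating members, KLF6 and KLF7 rose, and KLF2 and KLF4 did not pass. KLF6, a widely expressed immediate early factor described as a tumor suppressor in several cancers, had log2 values of 7.76, 7.74 and 7.84 with UNC1999, against 7.39, 7.26 and 7.25 with UNC2400. The lowest UNC1999 array lay above the highest UNC2400 array. UNC1999 cultures averaged 7.78 ± 0.05 and UNC2400 cultures 7.30 ± 0.08 (SD, n = 3 each), a 1.4-fold difference of 0.48 (SE 0.05, 95% interval 0.36 to 0.60, limma adjusted p = 0.00412). KLF7, the closest relative of KLF6 and known from neurons, had 4.95, 5.01 and 4.96 with UNC1999, against 4.77, 4.78 and 4.78 with UNC2400. Its groups also did not overlap, and its difference of 0.19 (SE 0.02, 95% interval 0.14 to 0.24, 1.14-fold) passed with an adjusted p of 0.00578 in limma. The signal of KLF7 lay close to the array median (50.9th percentile of all rows). Both calls were kept whichever array was left out, with an adjusted p of at most 0.0215 for KLF6 and 0.0289 for KLF7.

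KLF2 had 6.66, 6.64 and 6.46 with UNC1999, against 6.53, 6.46 and 6.65 with UNC2400. The lowest value of all 6 arrays was that of UNC1999 replicate 3 and the groups overlapped, with a difference of 0.04 (95% interval -0.13 to 0.21, limma adjusted p = 0.836). KLF4, which promotes growth arrest in epithelial cells, had 6.16, 6.05 and 5.87 with UNC1999, against 5.89, 5.92 and 5.94 with UNC2400. UNC1999 replicates 1 and 2 lay above all UNC2400 arrays and UNC1999 replicate 3 below them, and the difference of 0.11 did not pass (95% interval -0.07 to 0.30, limma adjusted p = 0.494). For KLF2 the interval leaves room for a difference of up to 0.21 upwards and 0.13 downwards on the log2 scale.

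The members that recruit CtBP, a corepressor that carries histone-modifying enzymes to promoters, were KLF3 and KLF12, and both rose when all arrays were used. KLF3, which shapes B cell subsets in mice, had 4.99, 5.00 and 5.2 with UNC1999, against 4.74, 4.79 and 4.81 with UNC2400. UNC1999 replicate 3 was the highest array and the groups did not overlap. The difference was 0.29 (SE 0.06, 95% interval 0.14 to 0.44, 1.22-fold, limma adjusted p = 0.0428), at a signal near the array median (52.7th percentile). KLF12, first described as a repressor of the TFAP2A gene, had 6.29, 6.34 and 6.32 with UNC1999, against 6.18, 6.07 and 6.16 with UNC2400. Its groups did not overlap either, and its difference of 0.18 (SE 0.03, 95% interval 0.10 to 0.26, 1.13-fold) had an adjusted p of 0.0289 in limma.

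These calls of KLF3 and KLF12 were each lost in 5 of the 6 fits with 1 array left out. Over the whole table, 3273 rows were called higher with all arrays. This count fell in every such fit but that without UNC1999 replicate 3 (3657), and was lowest without UNC1999 replicate 2 (1486). Losses of calls in these fits were thus not particular to the genes named here. For KLF3 the adjusted p was 0.0674 without UNC1999 replicate 1, 0.0897 without UNC1999 replicate 2, 0.137 without UNC2400 replicate 1, 0.103 without UNC2400 replicate 2 and 0.102 without UNC2400 replicate 3, but 0.0133 without UNC1999 replicate 3. For KLF12 it was 0.0727 without UNC1999 replicate 1, 0.111 without UNC1999 replicate 2, 0.0659 without UNC1999 replicate 3, 0.0539 without UNC2400 replicate 1 and 0.0652 without UNC2400 replicate 3, but 0.0305 without UNC2400 replicate 2. The direction was the same in each of these fits, with differences between 0.22 and 0.33 for KLF3 and between 0.14 and 0.20 for KLF12. The KLF3 call was also lost after quantile (adjusted p = 0.0585) and cyclic loess normalization (adjusted p = 0.0616), and the KLF12 call in limma with a trended, robust prior (adjusted p = 0.0545).

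**Figure D3:**
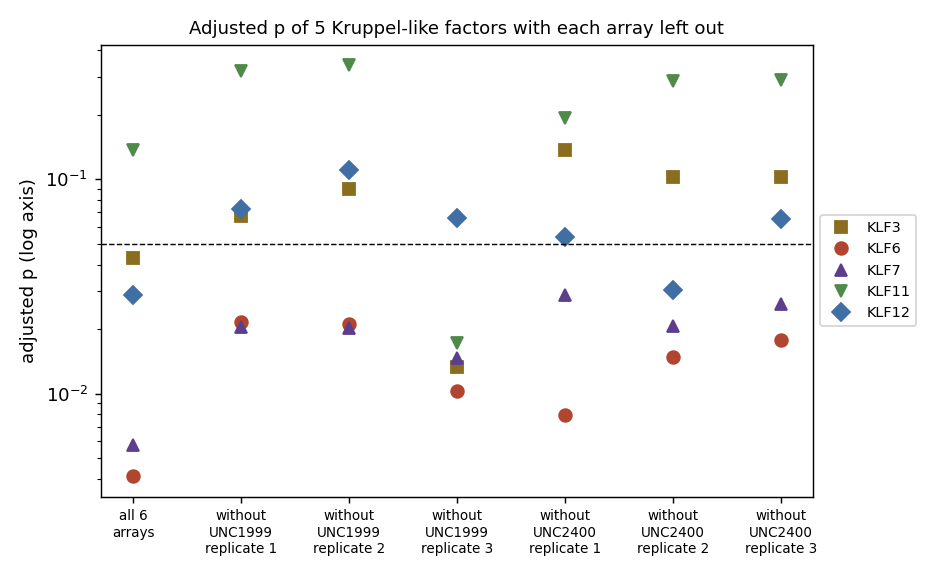
Limma adjusted p (log axis) of 5 Kruppel-like factors with all 6 arrays and with each array left out, with the threshold of 0.05 as a dashed line. KLF6 and KLF7 stay below the line in every fit, KLF3 and KLF12 in 1 fit each beside that of all arrays, and KLF11 only without UNC1999 replicate 3.

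None of the members that recruit SIN3A, the scaffold of a histone deacetylase complex, passed the threshold with all arrays. KLF11, induced by TGF-beta, had 6.71, 6.70 and 6.53 with UNC1999, against 6.53, 6.45 and 6.46 with UNC2400. The UNC1999 arrays all lay above the UNC2400 arrays, but UNC1999 replicate 3 did so by less than 0.01, and the difference of 0.17 (SE 0.05, 95% interval 0.03 to 0.30) had an adjusted p of 0.137 in limma. Without UNC1999 replicate 3 the difference was 0.22 with an adjusted p of 0.0173, and with arrays weighted by their quality, which gave that array the lowest weight (0.57), it was 0.19 with an adjusted p of 0.0476. KLF10, also induced by TGF-beta and known as TIEG1, had 6.69, 6.77 and 6.61 with UNC1999, against 6.65, 6.53 and 6.44 with UNC2400. The groups overlapped, and the difference of 0.15 did not pass (95% interval -0.01 to 0.31, limma adjusted p = 0.245).

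KLF9, a glucocorticoid and thyroid hormone response gene, had 6.65, 6.69 and 6.59 with UNC1999, against 6.67, 6.58 and 6.70 with UNC2400. The groups overlapped fully, and the 95% interval of the difference was -0.11 to 0.10 (limma adjusted p = 0.960). KLF13, which activates the chemokine gene CCL5 in T cells, had 7.49, 7.47 and 7.34 on its brighter row with UNC1999, against 7.57, 7.43 and 7.56 with UNC2400. Its difference of -0.08 did not pass (95% interval -0.22 to 0.05, limma adjusted p = 0.480). Its dimmer row had 5.70, 5.76 and 5.79 with UNC1999, against 5.52, 5.69 and 5.70 with UNC2400, a difference of 0.11 that did not pass either (limma adjusted p = 0.320). Both rows had overlapping groups, and they disagreed in sign. The chemokine gene CCL5 itself differed by 0.04 (limma adjusted p = 0.502). Its means of 4.78 with UNC1999 and 4.75 with UNC2400 lay below the array median of 4.85.

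Of the 7 other Kruppel-like factors measured, 0 passed in either direction, and their median difference was 0.02. The higher group mean lay above the array median for 5 of these 7, but not for KLF8 and KLF14, whereas it did for all 10 members. KLF1, the erythroid factor (0.02), KLF5, an activator of epithelial cells (0.01), KLF8, a CtBP-binding relative of KLF3 (0.03), KLF14 (0.02) and KLF16 (0.07), both close to KLF13 in sequence, and KLF17 (-0.04) had 95% intervals that included 0. KLF15, a glucocorticoid-induced metabolic factor, had the lowest difference (-0.11, 95% interval -0.22 to 0.01, limma adjusted p = 0.252). By cofactor class over all 17 measured factors, 2 of 6 activators, 2 of 3 CtBP-binding and 0 of 6 SIN3A-binding members rose, with 0 of 2 in neither class, beside 9.16% of all genes called higher. With so few genes a class, 0 of 6 is near that share, and the difference between classes was not tested.

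The SP factors share the zinc fingers and GC boxes with the Kruppel-like factors. Of 9 SP genes, 2 were higher (9.16% of all genes were) and 0 lower (7.32%), with a median of 0.11. SP4 had 6.97, 6.99 and 7.03 with UNC1999, against 6.84, 6.80 and 6.79 with UNC2400, and SP5, a WNT target gene, had 5.87, 5.85 and 5.88 with UNC1999, against 5.69, 5.69 and 5.68 with UNC2400. Neither gene had overlapping groups, and the differences were 0.18 for both (1.13-fold, limma adjusted p = 0.00963 for SP4 and 0.00293 for SP5). Both calls were kept whichever array was left out. SP1, the founding GC box factor, differed by 0.16 and SP2 by 0.13, with groups that did not overlap but an adjusted p of 0.0919 and 0.0972 in limma. SP6 (0.10) and SP9 (0.11) did not pass, and SP3, SP7 and SP8 differed by 0.02 or less.

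**Figure D4:**
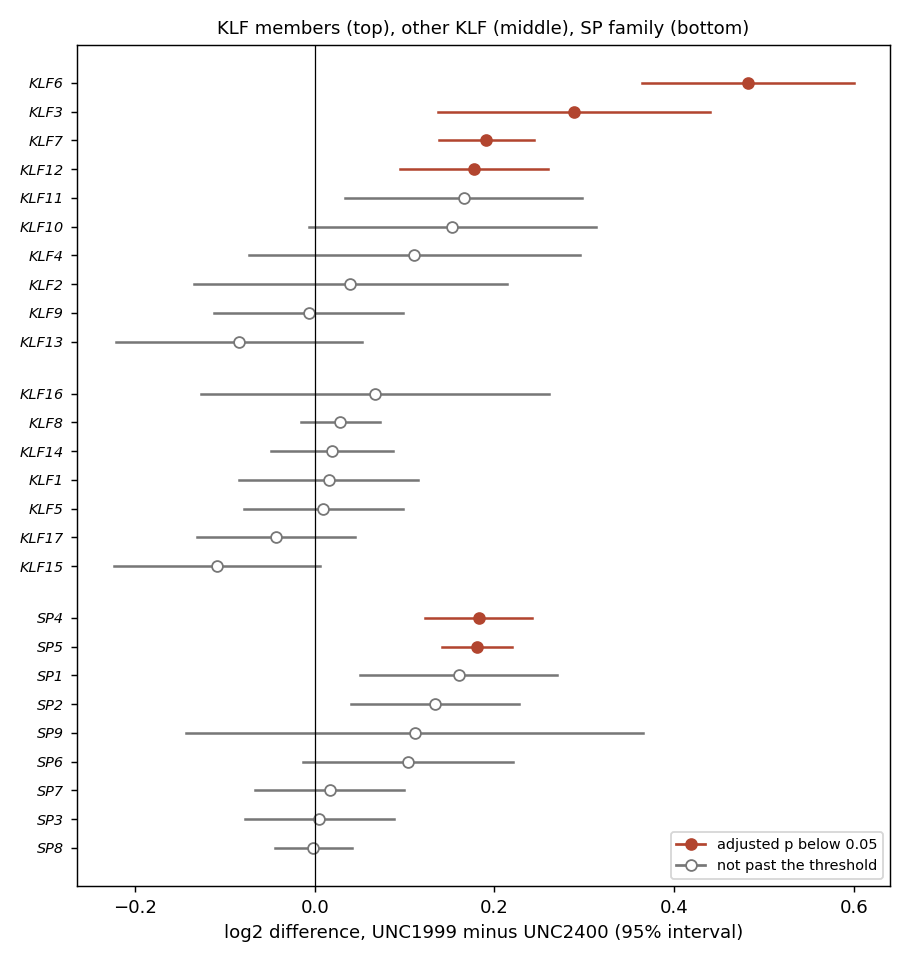
Difference of each Kruppel-like and SP factor (UNC1999 minus UNC2400, log2) with its 95% interval from limma, filled where the adjusted p was below 0.05 and open otherwise. The 10 members stand at the top, 7 other Kruppel-like factors with none filled in the middle, and 9 SP factors with SP4 and SP5 filled at the bottom.

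Genes whose pattern was most like that of 2 members were found among genes with a mean above the median of all rows, by the root mean square distance of centred log2 values over the 6 arrays. The nearest to KLF6 were the receptor gene NEO1 (distance 0.02, difference 0.46), the Mediator kinase gene CDK19 (0.03, difference 0.50) and the peptidase gene PEPD (0.03, difference 0.47). Those of KLF13, the member with the smallest p among differences below 0, were NCDN (0.01, difference -0.10), GMFG (0.01, difference -0.09) and KIAA1958 (0.02, difference -0.09), none of them past the threshold. All 6 are described by likeness over these arrays alone.

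The SIN3 complex deacetylates histones where KLF9, KLF10, KLF11 and KLF13 bring it to DNA. Of its 16 measured genes, 5 rose (9.16% of all genes did), 0 fell (7.32%) and 11 did not pass, with a median of 0.11. SIN3A, the scaffold itself, had 8.01, 8.01 and 8.01 with UNC1999, against 7.61, 7.47 and 7.47 with UNC2400 (difference 0.49, 1.41-fold, limma adjusted p = 0.00258). HDAC1, its deacetylase, had 8.38, 8.39 and 8.53 with UNC1999, against 7.90, 7.79 and 7.96 with UNC2400 (difference 0.55, 1.46-fold, limma adjusted p = 0.00517). SAP18, a small subunit, had a difference of 0.23 (limma adjusted p = 0.00261), while the paralogues SIN3B and HDAC2 differed by 0.06 and 0.01 and did not pass. The calls of SIN3A, HDAC1 and SAP18 were kept whichever array was left out. The remaining 2, named after their values were seen, were SAP130 (0.48, limma adjusted p = 0.0108, and 0.0543 without UNC1999 replicate 2) and BRMS1 (0.22, limma adjusted p = 0.0350). The BRMS1 call was kept only without UNC1999 replicate 3 and was otherwise lost with an adjusted p up to 0.12.

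Of 8 measured genes of the CtBP complex, 2 rose (9.16% of all genes did), 1 fell (7.32%) and 5 did not pass (median 0.12). RCOR1, a corepressor that holds the demethylase KDM1A, rose by 0.38 (limma adjusted p = 0.00510), with 7.02, 7.06 and 7.07 with UNC1999 against 6.70, 6.58 and 6.72 with UNC2400. EHMT1, a histone H3 lysine methyltransferase, rose by 0.15 (limma adjusted p = 0.0131, and 0.0554 without UNC1999 replicate 2). ZEB1, a zinc finger repressor that recruits CtBP, fell by 0.25 (limma adjusted p = 0.0253), with a call kept only when UNC1999 replicate 3 was the array left out and an adjusted p up to 0.0914 otherwise. CTBP1 and CTBP2 themselves differed by 0.09 and 0.06 and did not pass. Among 3 measured acetyltransferases, CREBBP, a coactivator of KLF activators, had 8.28, 8.26 and 8.38 with UNC1999, against 7.79, 7.62 and 7.81 with UNC2400 (difference 0.56, 1.48-fold, limma adjusted p = 0.00489). KAT2B fell by 0.33 (limma adjusted p = 0.0151), and this call was lost without UNC1999 replicate 1 or 2 (adjusted p up to 0.0692). EP300, the paralogue of CREBBP, shared its row with the microRNA gene MIR1281, and that row was higher by 0.36 (limma adjusted p = 0.00941), as noted after its value was seen.

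Regulators upstream of KLF2 and KLF4 moved both ways. In endothelial cells the kinase ERK5, encoded by MAPK7, and MEF2 factors induce both genes. Of 11 measured genes of this route, 2 rose (9.16% of all genes did), 2 fell (7.32%) and 7 did not pass (median -0.03). MAP3K3, a kinase at its head, had 6.75, 6.71 and 6.66 with UNC1999, against 6.41, 6.37 and 6.38 with UNC2400 (difference 0.32, limma adjusted p = 0.00308). MEF2C rose by 0.41 (limma adjusted p = 0.00652), whereas MEF2D had 7.45, 7.33 and 7.4 with UNC1999, against 8.07, 7.92 and 7.98 with UNC2400 (difference -0.60, limma adjusted p = 0.00249). HDAC9, a class IIa deacetylase that holds MEF2 factors inactive, fell by 0.57 (limma adjusted p = 0.00360). These 4 calls were kept whichever array was left out, and MAPK7 did not pass (0.10, limma adjusted p = 0.12). MEF2B shared its row with neighbouring genes, and that row had a difference of -0.27 (limma adjusted p = 0.0287).

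In T cells FOXO1 switches KLF2 on, and PI3K and AKT keep FOXO1 out of the nucleus. Of 8 measured genes of this route, 3 rose (9.16% of all genes did) and 0 fell (7.32%), with 5 not passing (median 0.08). PIK3R1, a regulatory subunit of PI3K, had 5.35, 5.38 and 5.36 with UNC1999, against 5.09, 5.10 and 5.05 with UNC2400 (difference 0.28, limma adjusted p = 0.00189). AKT1 rose by 0.21 (limma adjusted p = 0.00713) and PIK3CD, a catalytic subunit of PI3K in lymphocytes, by 0.22 (limma adjusted p = 0.0103, and 0.0524 without UNC1999 replicate 2). FOXO1, FOXO3 and FOXO4 differed by 0.03, -0.02 and 0.09 and did not pass.

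Of the TGF-beta route, which induces KLF10 and KLF11, 9 genes were measured. Among these, 3 rose (9.16% of all genes did), 1 fell (7.32%) and 5 did not pass (median 0.07). The fall was that of TGFBR2, the type II receptor, with 6.84, 6.78 and 6.77 with UNC1999 against 7.80, 7.60 and 7.77 with UNC2400 (difference -0.93, limma adjusted p = 0.00127). TGFBR1, the type I receptor, rose by 0.24 (limma adjusted p = 0.00416) and SMAD7, an inhibitory SMAD that KLF10 represses, by 0.32 (limma adjusted p = 0.00975). The ligand TGFB1 rose by 0.37 (limma adjusted p = 0.0173), a call lost without UNC1999 replicate 1 or 2 (adjusted p up to 0.0744). The receptors thus lay on opposite sides, and TGFBR2, TGFBR1 and SMAD7 kept their calls whichever array was left out.

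Glucocorticoid and clock genes, to which KLF9 and KLF15 respond, had 13 measured members. Among them 2 were higher (9.16% of all genes were), 2 lower (7.32%) and 9 did not pass (median 0.02). DUSP1, a phosphatase of MAP kinases, rose by 0.36 (limma adjusted p = 0.0113, and 0.0564 without UNC1999 replicate 2), and FKBP5, a cochaperone of the glucocorticoid receptor, had 7.96, 7.96 and 8.02 with UNC1999, against 8.53, 8.56 and 8.37 with UNC2400 (difference -0.51, limma adjusted p = 0.00509). Both are known glucocorticoid target genes, and they moved in opposite directions. The receptor gene NR3C1 differed by less than 0.01 and TSC22D3, another target, by -0.06, and neither passed. The clock gene PER1 fell by 0.21 (limma adjusted p = 0.0181, lost without UNC1999 replicate 2 or UNC2400 replicate 1, up to 0.0713) and BMAL1 rose by 0.22 (limma adjusted p = 0.0270, kept only without UNC1999 replicate 3 or UNC2400 replicate 1, up to 0.0887 otherwise).

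Of 7 ubiquitin ligases that act on Kruppel-like proteins, 1 was higher (9.16% of all genes were), 2 lower (7.32%) and 4 did not pass. Their median was below 0.01. SMURF1, a ligase of KLF2, rose by 0.20 (limma adjusted p = 0.0119, and 0.0503 without UNC1999 replicate 2). FBXW7, which targets KLF2 and KLF5, fell by 0.31 (limma adjusted p = 0.0150, kept only without UNC1999 replicate 3 or UNC2400 replicate 2, up to 0.0567 otherwise) and ITCH, which acts on KLF10, by 0.34 (limma adjusted p = 0.0288, kept only without UNC1999 replicate 3, up to 0.110 otherwise). WWP1, another ligase of KLF2, did not pass (-0.12, limma adjusted p = 0.444). Arrays measured RNA, and protein levels of the factors were not analysed here.

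Of the 3 genes tied to KLF2 in myeloma, 1 fell (7.32% of all genes did), 1 rose (9.16%) and 1 did not pass. IRF4 had 9.25, 9.03 and 9.24 with UNC1999, against 10.56, 10.41 and 10.40 with UNC2400 (difference -1.28, limma adjusted p = 0.00122). KDM3A, a demethylase of histone H3 that maintains KLF2 in myeloma lines, had 6.36, 6.41 and 6.46 with UNC1999, against 6.53, 6.49 and 6.56 with UNC2400. All its UNC1999 arrays lay below all UNC2400 arrays, but the difference of -0.12 did not pass (limma adjusted p = 0.0789). ITGB7, an adhesion receptor subunit of myeloma cells, rose by 0.43 (limma adjusted p = 0.0169), a call lost without UNC1999 replicate 1, UNC1999 replicate 2 or UNC2400 replicate 1 (adjusted p up to 0.0653).

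Genes that KLF2 controls in lymphocytes and endothelium had 6 measured members. Among them 2 were higher (9.16% of all genes were), 1 lower (7.32%) and 3 did not pass (median 0.06). CCR7, a homing receptor, had 5.57, 5.44 and 5.76 with UNC1999, against 4.75, 4.82 and 4.58 with UNC2400 (difference 0.87, 1.83-fold, limma adjusted p = 0.00607). S1PR1, the receptor by which lymphocytes leave lymphoid tissue, rose by 0.48 (limma adjusted p = 0.0383), with a call kept only without UNC2400 replicate 3 and an adjusted p up to 0.126 otherwise. CD69, which holds S1PR1 inside the cell, had 4.89, 4.82 and 4.82 with UNC1999, against 5.30, 5.27 and 5.17 with UNC2400 (difference -0.40, limma adjusted p = 0.00437). CCR7 with UNC2400 and CD69 with UNC1999 were close to the array median of 4.85.

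Of 8 growth genes under KLF4 and KLF6, 2 were higher (9.16% of all genes were), 0 lower (7.32%) and 6 did not pass (median 0.12). The mitotic cyclin gene CCNB1, which KLF4 represses, had 8.49, 8.55 and 8.56 with UNC1999, against 8.08, 7.90 and 8.09 with UNC2400 (difference 0.51, 1.42-fold, limma adjusted p = 0.00525). The cyclin-dependent kinase inhibitor CDKN1B rose by 0.19 (limma adjusted p = 0.00802), and CDKN1A, a target that KLF4 and KLF6 activate, did not pass (0.06, limma adjusted p = 0.248). Among 6 targets described for other members, TFAP2A, which KLF12 represses, had 6.56, 6.59 and 6.59 with UNC1999, against 5.95, 5.95 and 5.86 with UNC2400 (difference 0.66, 1.58-fold, limma adjusted p = 0.000766). LGALS3, which KLF3 represses in mice, rose by 0.14 (limma adjusted p = 0.0425, kept only without UNC2400 replicate 3, up to 0.135 otherwise). ATF3, a stress factor that KLF6 has been described to activate, fell by 0.17 (limma adjusted p = 0.00693). In this list 2 rose (9.16% of all genes did), 1 fell (7.32%) and 3 did not pass (median 0.02). Those 3, CCL5, MAOA and CDH1, had group means below the array median of 4.85.

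**Figure D5:**
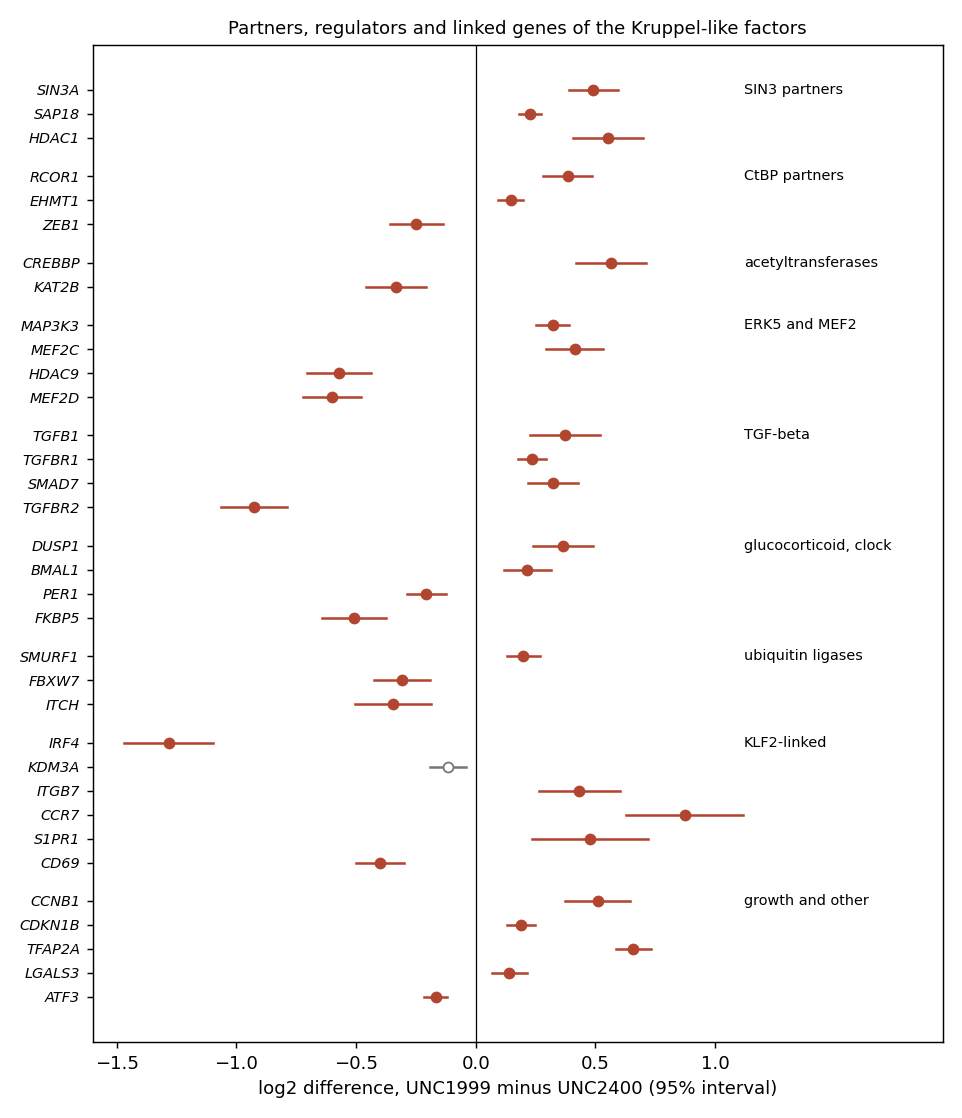
Difference (UNC1999 minus UNC2400, log2) of selected partners, regulators and target genes with its 95% interval from limma, filled where the adjusted p was below 0.05, with the group of each gene at the right. The FOXO and PI3K genes, SAP130 and BRMS1 are not drawn. Other than KDM3A, neither are partners, regulators and targets that did not pass. IRF4 (-1.28) and TGFBR2 (-0.93) lie farthest to the left and CCR7 (0.87) farthest to the right, and KDM3A is the only open circle.

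Over all lists, 157 of 166 genes were measured, the members and markers included, and 53 passed the threshold in either direction, among them all 9 plasma cell markers, beside 9.16% of all genes called higher and 7.32% called lower. Of the 53, 34 kept their call whichever array was left out.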

How the data were processed

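Total RNA of 3 UNC1999 and 3 UNC2400 cultures had been hybridised to Affymetrix arrays and processed in GeneSpring. The values used are the log2 values deposited by the authors, 1 per row and array, already summarised and normalized. How this was done, and on which build, is not given in the sources used here. Rows were named through the platform annotation, with symbols updated through RefSeq (23129 rows with 1 symbol, 1221 with several, which named no gene, and 41179 with none). The table held 0 columns of other samples. Limma 3.58.1 in R 4.3.3 (lmFit, eBayes, group as the only term, two-sided) was fitted to all 65529 rows. It had also been run on simulated data with independent normal noise, which does not test whether such noise describes these arrays. Labels say the replicates are biological but not whether cultures were independent, so p-values measure the spread between these arrays. The members and lists were chosen with earlier results of these data known, and a list is described by its counts and median alone. Named were all Kruppel-like and SP factors and, per list, up to 3 genes with the smallest p in each direction. Other genes were added as context. Alternatives were a replicate block, quantile and cyclic loess normalization, leaving out dim rows, a trended robust prior, array weights, the mean of all rows of a gene, the thresholds of the study and leaving out each array. Promoter sequences are from RefSeq (GRCh38.p14). Plots were drawn with matplotlib 3.10.9.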

Additional observations from a re-analysis of the deposited data

How the results depend on the processing

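Of the 10 members, 4 were higher with UNC1999 with all arrays, 3 with quantile or cyclic loess normalization or a trended robust prior, 5 with array weights, 4 with dim rows left out or rows of a gene averaged, 2 to 4 with 1 array left out, and 0 at the thresholds of the study, which ask for a larger fold. Rows called higher over the whole table also varied, with 3273 of 65529 with all arrays and 1486 to 3657 with 1 array left out. There were 3568 with quantile and 3011 with cyclic loess normalization, 3160 with the trended robust prior and 4082 with array weights. With dim rows left out there were 3603 of 33546, and with rows of a gene averaged 3134 of 64321. No setting gave a member that was lower. The median difference of the members was 0.16, between 0.13 and 0.18 under the other settings and between 0.13 and 0.19 with 1 array left out. Directions turned only for members that did not pass: KLF13 with the mean of its rows (0.0142), KLF9 without UNC1999 replicate 3 (0.0208), UNC2400 replicate 1 (0.004) or UNC2400 replicate 3 (0.0185), and KLF2 without UNC2400 replicate 2 (-0.0021). With 1 array left out the difference lay between -0.0434 and 0.0208 for KLF9 and between -0.0021 and 0.1027 for KLF2. For these turns the cause was not tested. With a replicate block, 3 members were higher and the call of KLF12 was lost (adjusted p = 0.0961 in limma). The call of KLF3 was kept only just below the threshold (adjusted p = 0.0499 in limma). Of 53 listed genes, 42 kept their call. With the block 4262 rows were called, against 6154 without it, with 3766 rows called in both. Deviations of equally numbered arrays correlated at 0.06, 0.08 and -0.01. Replicates 1 and 2 were each closest to their own number and replicate 3 was not. The study names a paired Student t-test in its statistics and a moderated t-test for the arrays. With such weak correlations the numbers were not taken to pair the samples in the main fit, but the labels do not settle this. The other calls lost with the block were those of SP4 (adjusted p = 0.0554), SMAD7 (0.0526), EHMT1 (0.0533), PIK3CD (0.0516), ITCH (0.0515), ZEB1 (0.0633), KAT2B (0.0643), LGALS3 (0.0678), BMAL1 (0.0703) and PER1 (0.0805). KLF3 and KLF7 had signal near the array median.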
